A study of Mus musculus with 2 samples.

Results

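The genes of translation initiation and elongation factors were taken from the gene activities measured in C2C12 myoblasts as all symbols that begin with Eif and a digit, or with Eef1 or Eef2, leaving out Eif2ak3. The rule found 63 genes with 81 RefSeq entries, among 20128 genes with 24165 entries in the table. C2C12 cells are a long-established mouse line of myoblasts, the precursors that fuse into muscle fibres. GRO-seq (global run-on sequencing) labels the RNA that engaged polymerases extend in isolated nuclei, so it counts polymerases at work on a gene and not the mRNA that has accumulated. Both libraries came from untreated cells at 80% confluency, with 4 plates of 10 cm for each isolation of nuclei. The authors pooled them into 1 value of gene activity per RefSeq entry, in RPKmM, a form of RPKM that divides by the mappable bases of a gene, counted on the sense strand from 1 kb after the transcription start site to the end of the transcript.

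Because the table holds pooled values, no value has a standard deviation and no difference was tested. The table gives neither read counts nor the depth of each library, so no counting interval was computed. An entry whose read density was not above that of gene deserts, by the false discovery rate of the authors, carries the word Inactive and no number. All 6 genes listed for myoblasts, the labelled cell type, were active, from 2.39 RPKmM for Myod1 to 146.13 RPKmM for Vim. Of all entries in the table, 70.2% were active. Genes of differentiated fibres were also active, 6 of 6 in the table, between 0.14 RPKmM for Myh4 and 6.85 RPKmM for Acta1, with Myog at 2.39 RPKmM, equal to Myod1. Of 6 markers of liver, blood, endothelium, neuron and keratinocyte, 4 were inactive (Alb, Ptprc, Snap25 and Krt5), and Pecam1 and Syt1 were at 0.01 RPKmM.

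Translation begins when the cap at the start of an mRNA is bound by eIF4F, made of the cap-binding protein eIF4E, the scaffold eIF4G and the RNA helicase eIF4A. The small ribosomal subunit arrives with eIF1, eIF1A, eIF3 and the initiator tRNA carried by eIF2, scans to a start codon, and is joined by the large subunit with the help of eIF5 and eIF5B. In elongation, eEF1A brings each aminoacyl-tRNA, the eEF1B subunits recharge eEF1A with GTP, and eEF2 moves the ribosome to the next codon. Growing cells such as proliferating myoblasts depend on this machinery to make protein.

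Nearly all the factor genes were transcribed, and most of them above the typical active gene. Of the 81 entries, 79 were active (97.5%), where 70.2% of all entries were. An activity of at least 1 RPKmM was reached by 63 entries (77.8%), against 32.3% of all entries, and an activity of at least 10 RPKmM by 10 entries (12.3%), against 2.03% of all entries. The median of the active entries was 2.62 RPKmM (quartiles 1.11 and 5.55), which is 3.01 times the median of 0.87 RPKmM over all active entries (quartiles 0.22 and 1.99). Of the 79 active entries, 65 (82.3%) lay above that overall median. These are counts of different genes in 1 pooled measurement, not replicates of a condition.

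Other parts of the protein machinery lay on either side. Ribosomal protein genes had the higher median, 5.96 RPKmM (quartiles 2.51 and 13.68) over 75 active entries, 2.27 times that of the factors. Aminoacyl-tRNA synthetase genes, whose enzymes load tRNAs with amino acids, had a median of 1.38 RPKmM over 38 active entries, and the median of the factors was 1.90 times as high. Proteasome subunit genes were close to the factors in their median, 2.83 RPKmM over 36 active entries, but 1 of their 40 entries was at 10 RPKmM or above. The medians of the factors and the proteasome genes thus lay close. At 10 RPKmM or above were 12.3% of the factor entries and 2.5% of the proteasome entries, where 2.03% of all entries were. Without the genes that hold a small nucleolar RNA gene, the shares by gene were 5.45% (3 of 55) and 2.63% (1 of 38), against 1.78% of all such genes.

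**Figure D1:**
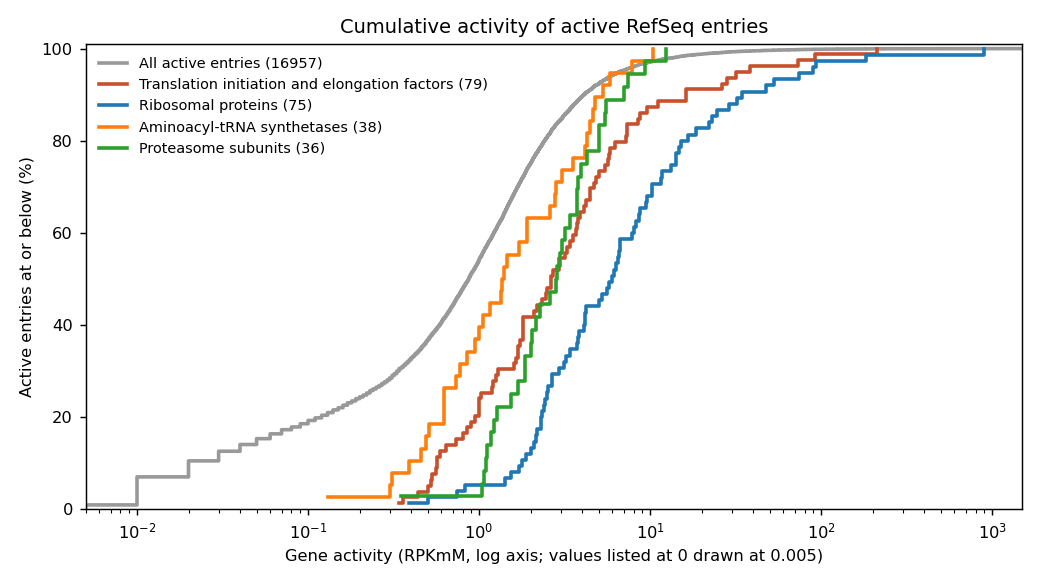
Cumulative share of active RefSeq entries (vertical axis, percent) against gene activity (horizontal axis, RPKmM, log scale) for the factor genes, ribosomal protein genes, aminoacyl-tRNA synthetase genes, proteasome subunit genes and all active entries. The curve of the factors lies to the right of that of all entries, with medians of 2.62 and 0.87 RPKmM, and the ribosomal protein curve lies furthest right at its median of 5.96 RPKmM.

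Taking the most active entry of each gene, the factors ran from 0.34 RPKmM for Eif4e3 to 211.26 RPKmM for Eif4g2. Of the 63 genes, 2 were inactive, 12 were below 1 RPKmM, 39 were from 1 to below 10, 9 were from 10 to below 100, and 1 was at 100 or above. The 10 genes at the top were Eif4g2, Eif3a, Eif4a2, Eef2, Eif4g1, Eif4b, Eif4a1, Eef1b2, Eif3c and Eif4h. They encode parts, relatives or helpers of the cap-binding complex, subunits of eIF3 and elongation factors, and none of them is a subunit of eIF2 or eIF2B.

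**Figure D2:**
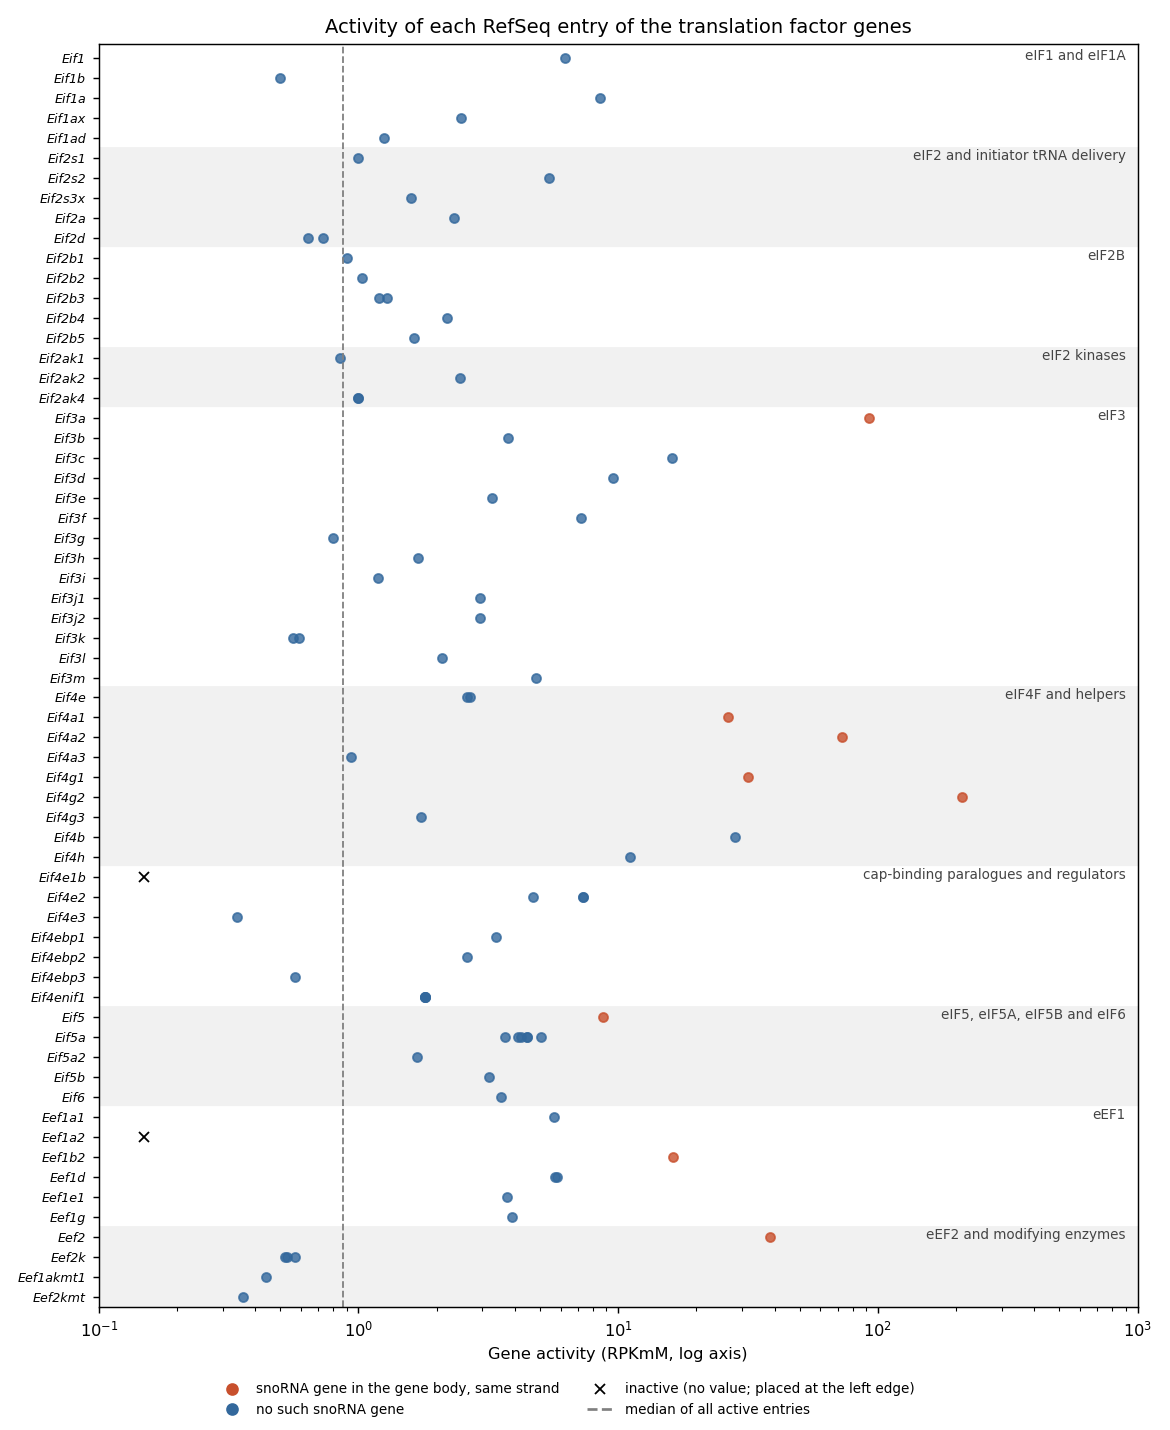
Gene activity (horizontal axis, RPKmM, log scale) of each RefSeq entry of the factor genes, in rows by gene and grouped by role, with genes that hold a snoRNA gene set apart by colour and the median of all active entries drawn as a line at 0.87 RPKmM. The entries span 0.34 to 211.26 RPKmM, Eef1a2 and Eif4e1b have no value because they were inactive, and entries of a gene lie close together except in Eif4e2, at 4.68 to 7.33 RPKmM.

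Among the genes that set start codon choice, Eif1 and its paralogue Eif1b were far apart. Eif1, whose product keeps the scanning subunit open until the start codon is met, was at 6.23 RPKmM, above 94.4% of active entries. Eif1b was at 0.50 RPKmM, so that Eif1 was 12.5 times as active. Both genes of eIF1A, the partner of eIF1 on the small subunit, were active. Eif1a was at 8.51 RPKmM and Eif1ax, the copy on the X chromosome, was at 2.49 RPKmM, a ratio of 3.42. Eif1ad, which encodes a protein with an eIF1A-like domain, was at 1.25 RPKmM.

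The subunits of eIF2, which act together in equal number, did not have equal gene activities. Eif2s2 (the beta subunit) was at 5.42 RPKmM, Eif2s3x (the gamma subunit, which binds GTP) at 1.60 RPKmM, and Eif2s1 (the alpha subunit, the target of the stress kinases) at 1.00 RPKmM. The beta subunit gene was thus 5.42 times as active as the alpha and 3.39 times as active as the gamma subunit gene. Eif2a, for a separate initiator tRNA-binding protein that is not a subunit of eIF2, was at 2.34 RPKmM, and the entries of Eif2d, for another such protein, were at 0.64 and 0.73 RPKmM.

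The genes of eIF2B, the exchange factor that reloads eIF2 with GTP, were the most even of the multi-subunit complexes described here. Their most active entries were 0.90 RPKmM for Eif2b1, 1.03 RPKmM for Eif2b2, 1.29 RPKmM for Eif2b3, 2.19 RPKmM for Eif2b4 and 1.64 RPKmM for Eif2b5. The highest was 2.43 times the lowest, and all 5 lay above the median of 0.87 RPKmM of all active entries. The kinases that phosphorylate the alpha subunit of eIF2 and so hold back eIF2B were at similar levels: Eif2ak1, which senses haem, at 0.85 RPKmM, Eif2ak4, which senses amino acid shortage, at 1.00 RPKmM in both entries, and Eif2ak2, which senses double-stranded RNA, at 2.47 RPKmM.

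The subunits of eIF3, the scaffold that holds the small subunit to the mRNA, were spread over a wide range of activity. The 14 genes were all active, where 68.7% of all genes were. Their median was 3.11 RPKmM, and the highest was 157 times the lowest. Eif3a, the large core subunit, stood alone at 92.36 RPKmM, and only 27 active entries in the whole table lay above it. Eif3c was next at 16.18 RPKmM, so that Eif3a was 5.71 times as active as the next subunit gene. Eif3c holds an annotated gene of U6, a spliceosomal RNA, on its own strand, as does Eif2b3 at 1.29 RPKmM, and the part of U6 in these values was not tested. The activities were 9.59 RPKmM for Eif3d, 7.22 for Eif3f, 4.81 for Eif3m, 3.77 for Eif3b, 3.28 for Eif3e and 2.09 for Eif3l. Below these, Eif3h was at 1.69 RPKmM, Eif3i at 1.19 RPKmM and Eif3g at 0.80 RPKmM, and Eif3k was lowest at 0.56 and 0.59 RPKmM in its entries. Without Eif3a, which holds snoRNA genes, the highest was 27.4 times the lowest. Eif3j1 and Eif3j2 both carry 2.94 RPKmM. The GENCODE vM1 records matched to them lie at different loci, on chromosome 2 for Eif3j1 and chromosome 18 for Eif3j2. The table gives no coordinates and both were matched only through older names, so whether these are separate measurements is uncertain.

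The genes of eIF4F, its relatives and its helpers included the most active factor gene, and the gene of the cap-binding subunit was among the less active of them. Eif4g2, which encodes a relative of eIF4G that lacks the eIF4E-binding region, was at 211.26 RPKmM, and only 9 active entries in the table lay above it. It was 6.66 times as active as Eif4g1, the main scaffold gene, at 31.71 RPKmM, and Eif4g3, the other scaffold gene, was at 1.74 RPKmM. Eif4g1 was thus 18.2 times as active as Eif4g3.

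The helicase genes were likewise uneven. Eif4a2 was at 73.06 RPKmM and Eif4a1 at 26.39 RPKmM, a ratio of 2.77. Eif4a3, whose product belongs to the exon junction complex and not to eIF4F, was at 0.94 RPKmM, so that Eif4a1 was 28.1 times and Eif4a2 77.7 times as active. The helpers of the helicase, Eif4b and Eif4h, were at 28.06 and 11.10 RPKmM. The 2 entries of Eif4e, the cap-binding subunit, were at 2.62 and 2.70 RPKmM, and Eif4g1 was 11.7 times and Eif4b 10.4 times as active as Eif4e. Of the 9 genes in this group, 4 (Eif4a1, Eif4a2, Eif4g1 and Eif4g2) hold snoRNA genes. The group median was 26.39 RPKmM with them and 2.70 RPKmM without them.

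Of the paralogues and regulators of eIF4E, 6 of 7 were active, where 68.7% of all genes were. None reached 10 RPKmM, where 1.99% of all genes did. Eif4e2, for a cap-binding relative that represses translation, was the highest, at 7.33, 7.32 and 4.68 RPKmM in its 3 entries, and 2.71 times as active as Eif4e by the most active entry of each. Eif4e was 0.37 times Eif4e2 on that basis and 0.56 times by the least active entries. Eif4e3 was at 0.34 RPKmM, the lowest number among the factors, and Eif4e1b, a form known from oocytes, was inactive. The 4E-binding proteins, which keep eIF4E from eIF4G until mTOR phosphorylates them, were at 3.38 RPKmM for Eif4ebp1, 2.62 RPKmM for Eif4ebp2 and 0.57 RPKmM for Eif4ebp3. The 4 entries of Eif4enif1, for the protein that carries eIF4E into the nucleus, were at 1.8 or 1.81 RPKmM. In the GENCODE vM1 annotation of mm9, the gene record of Eif4ebp3 lies wholly within that of Ankhd1 (1.48 RPKmM) on the same strand. That of Eif4e3 overlaps Foxp1 (1.30 RPKmM) on the same strand for only a small part of its length. A read in an overlap cannot be assigned to 1 gene.

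The late initiation factors lay between 1.68 and 8.71 RPKmM. Eif5, which makes eIF2 hydrolyse GTP at the start codon, was at 8.71 RPKmM, Eif5b, which joins the large subunit, was at 3.18 RPKmM, and Eif6, which keeps the subunits apart, was at 3.53 RPKmM. Eif5a, for the factor that carries hypusine and eases the ribosome through difficult sequences, had 6 entries between 3.67 and 5.04 RPKmM. Its most active entry was 3 times its paralogue Eif5a2, at 1.68 RPKmM. None of these 5 genes fell below 1 RPKmM.

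In elongation, the pair that forms eEF1A was split between an active gene and an inactive one. Eef1a1 (NM_010106) was at 5.68 RPKmM, above 93.7% of active entries. Eef1a2 was inactive, so no ratio is given. The GENCODE vM1 records of these symbols on mm9 span chr9:78326256-78336958 for Eef1a1 and chr2:180882358-180891719 for Eef1a2, both on the minus strand, and the table itself gives no coordinates. Eef1a2 is known as the form of mature muscle and neurons, which take it up in place of Eef1a1 after differentiation. Eef1a1 has many processed copies in the genome, and only uniquely mapped reads were kept. What these copies do to its value was not tested. The promoters are shown because this is the pair of which only 1 gene was active. Each spans 50 bases before to 30 after the RefSeq start on GRCm38.p6, with capitals from the C nearest the start that is followed by at least 4 pyrimidines to the end of that run, which can begin further upstream.
Eef1a1, chr9:78481695-78481774, minus strand: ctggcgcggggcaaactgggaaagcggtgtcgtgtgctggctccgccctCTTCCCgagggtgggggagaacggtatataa
Eef1a2, chr2:181156986-181157065, minus strand: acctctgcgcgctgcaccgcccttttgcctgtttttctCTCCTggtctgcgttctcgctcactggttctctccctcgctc

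The exchange factor of eEF1A and the translocase were active throughout. Eef1b2, a catalytic subunit, was at 16.25 RPKmM, Eef1d at 5.73 and 5.80 RPKmM, and Eef1g, the structural subunit, at 3.90 RPKmM. Eef1e1, whose product sits in the multi-synthetase complex, was at 3.74 RPKmM. Eef2 (NM_007907) was at 38.26 RPKmM, 6.74 times Eef1a1, and 90 active entries lay above it. The 3 genes among the factors that encode enzymes modifying eEF1A or eEF2 were below 1 RPKmM. Eef2k, the kinase that switches eEF2 off, had entries at 0.52, 0.53 and 0.57 RPKmM, and Eef2 was 67.1 times as active. Eef2kmt, which methylates eEF2, was at 0.36 RPKmM, and Eef1akmt1, which methylates eEF1A, was at 0.44 RPKmM.

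The ratios between related genes varied widely. In 7 pairs chosen for comparison, with numbers on both sides, the ratio of higher to lower was 1.29 for Eif4ebp1 and Eif4ebp2, 2.71 for Eif4e2 and Eif4e, 2.77 for Eif4a2 and Eif4a1, 3 for Eif5a and Eif5a2, 3.42 for Eif1a and Eif1ax, 12.5 for Eif1 and Eif1b, and 18.2 for Eif4g1 and Eif4g3. Among other related genes, Eif3j1 and Eif3j2 had equal values, Eif4g2 was 6.66 times Eif4g1, and Eif4e2 was 21.6 times Eif4e3. These ratios have no error attached, because each side is a single pooled value.

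**Figure D3:**
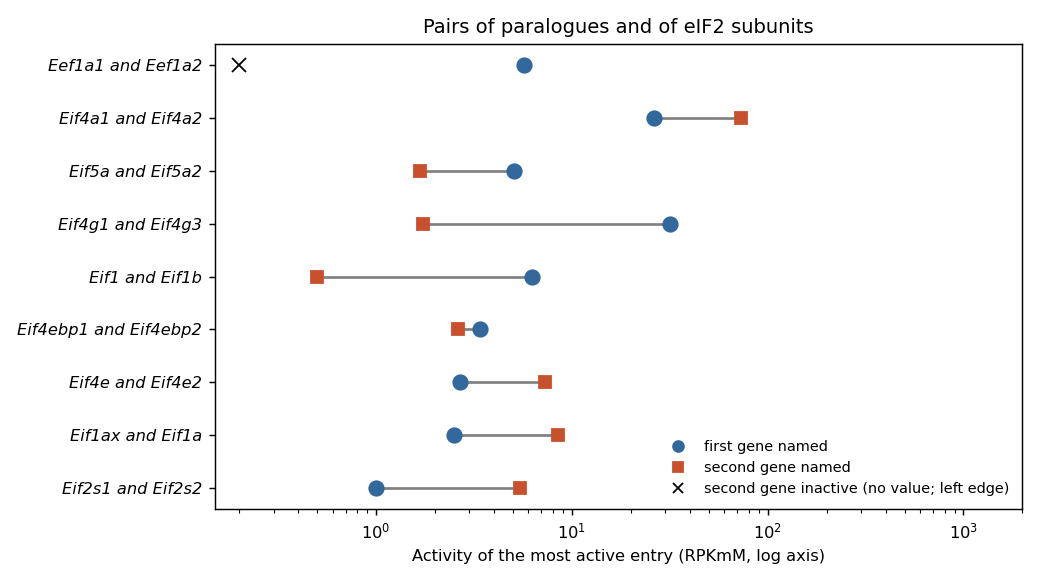
Gene activity (horizontal axis, RPKmM, log scale) of the most active entry of each gene in the paralogue or partner pairs, with a line joining the genes of a pair. Of the pairs drawn, that of Eif4ebp1 and Eif4ebp2 lies closest at a ratio of 1.29, that of Eif4g1 and Eif4g3 lies furthest apart at 18.2, and Eef1a2 is marked as inactive.

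A feature that the choice of genes did not use was shared by most of the highly active factors: they hold small nucleolar RNA (snoRNA) genes in their bodies. SnoRNAs guide the chemical modification of ribosomal and spliceosomal RNA, and in mammals most are released from introns of host genes. In GENCODE vM1, 8 of the 63 factor genes (12.7%) hold a snoRNA gene on the same strand beyond 1 kb from their start, 16 snoRNA genes in all, where 271 of 18840 annotated genes do (1.44%). The hosts are Eef1b2, Eef2, Eif3a, Eif4a1, Eif4a2, Eif4g1, Eif4g2 and Eif5, and the RefSeq annotation of GRCm38.p6 names the same 8. The snoRNAs differ between hosts, from 5 in Eif4a2 to 1 each in Eef2, Eif4g1, Eif4g2 and Eif5.

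The sequences below are 1 snoRNA gene from each of the 5 most active hosts, shown because these hosts carry the highest activities, and were read from the mm9 genome on the strand of the host. Capitals mark the letters TGATGA and the last CTGA of the C/D class (other copies of CTGA are left in lower case), which guides methylation, or ACA within the last 8 bases of the H/ACA class, which guides pseudouridylation. Of the 1552 snoRNA genes in the annotation, 23.6% hold TGATGA, 78.5% hold CTGA and 47.7% hold ACA within the last 8 bases, on the annotated strand. Snord2 has only CTGA marked and snoU97 has neither.
Snord37 in Eef2, chr10:80641695-80641758, plus strand: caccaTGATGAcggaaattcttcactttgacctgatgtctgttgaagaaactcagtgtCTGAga
Snord66 in Eif4g1, chr16:20684312-20684386, plus strand: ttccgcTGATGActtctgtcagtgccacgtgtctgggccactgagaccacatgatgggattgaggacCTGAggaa
Snord2 in Eif4a2, chr16:23109026-23109094, plus strand: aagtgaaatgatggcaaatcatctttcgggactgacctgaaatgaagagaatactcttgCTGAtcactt
SNORA19 in Eif3a, chr19:60851424-60851542, minus strand: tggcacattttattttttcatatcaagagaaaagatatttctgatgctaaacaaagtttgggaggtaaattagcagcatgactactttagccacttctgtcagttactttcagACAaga
snoU97 in Eif4g2, chr7:118219574-118219741, minus strand: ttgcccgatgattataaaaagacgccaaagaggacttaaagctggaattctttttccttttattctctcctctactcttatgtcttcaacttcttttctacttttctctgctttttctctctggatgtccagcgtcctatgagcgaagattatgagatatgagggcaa

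The host genes were among the most active factors. Their activities were 8.71 RPKmM for Eif5, 16.25 for Eef1b2, 26.39 for Eif4a1, 31.71 for Eif4g1, 38.26 for Eef2, 73.06 for Eif4a2, 92.36 for Eif3a and 211.26 for Eif4g2. The median of the 8 hosts was 34.99 RPKmM, 15.0 times the median of 2.34 RPKmM over the 53 active factors without a snoRNA gene. Of those 53, 4 genes (Eif3c, Eif3d, Eif4b and Eif4h) lay above the lowest host and 49 lay below it. Of the 10 factors at 10 RPKmM or above, 7 were hosts (70%). Across all annotated genes 2.05% reached 10 RPKmM, and 57 of those 387 genes held a snoRNA gene (14.7%), against 1.48% of the active genes below 10 RPKmM.

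Over all genes outside the factors, the active genes with a snoRNA gene also had the higher median, by a smaller ratio. The median was 2.13 RPKmM with and 0.88 RPKmM without a snoRNA gene, a ratio of 2.42. In ribosomal protein genes it was 22.61 RPKmM in 22 hosts and 3.79 RPKmM in the 45 other active genes, a ratio of 5.97. The aminoacyl-tRNA synthetase genes had 2 hosts, with a median of 1.97 RPKmM against 1.425 RPKmM in the 32 others, and the single proteasome host was at 2.59 RPKmM, below the median of 2.915 RPKmM of the 34 other active proteasome genes. The deposited value of a host covers its whole body, snoRNA genes included, and the stated removal of repeats names rRNA and tRNA. The part that reads from snoRNAs have in the activity of their hosts was not tested. Without the host genes, 3 of 55 factors (Eif4b, Eif3c and Eif4h) were at 10 RPKmM or above (5.45%). Of all annotated genes without a snoRNA gene, 1.78% were.

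**Figure D4:**
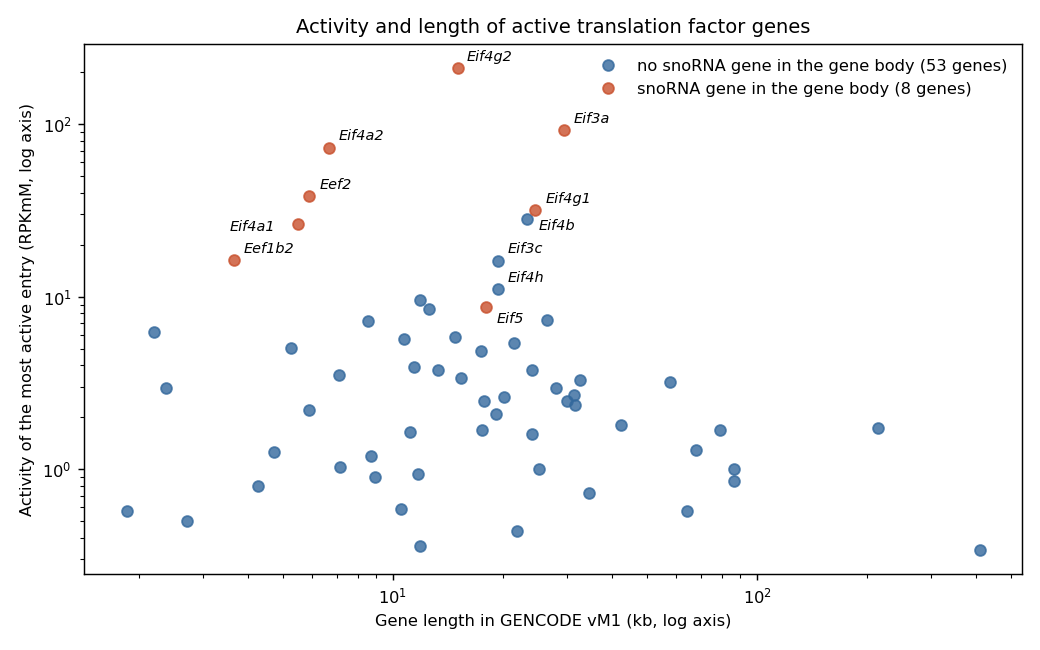
Gene activity (vertical axis, RPKmM, log scale) of the active factor genes against the length of the gene in GENCODE vM1 (horizontal axis, log scale), with genes that hold a snoRNA gene in their body in a separate colour. The 8 host genes lie between 8.71 and 211.26 RPKmM, and the 53 others lie between 0.34 and 28.06 RPKmM.

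Gene length in GENCODE vM1 tracked activity only weakly. These lengths are not those of the measured RefSeq entries. Among the factors they go down to 1858 bases, although the authors kept only genes of at least 2 kb. Spearman's correlation of length with activity was -0.15 over the 61 active factor genes, -0.09 over the 53 without a snoRNA gene, and -0.03 over 13348 active genes of the table. These are descriptions across genes, which share the same pooled libraries. Entries of the same gene differed little: for the 10 factors with several entries, the median ratio of the highest to the lowest was 1.06, and 1 of them (10%), Eif4e2 at 1.57, was over 1.5, where 20.8% of 2274 genes in the table were. Entries of a gene overlap and share reads, so they are not separate measurements.

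Many genes of the translation machinery begin their mRNA with a C and a run of pyrimidines, the tract by which mTOR tunes their translation, so the start of each promoter was read for it. Promoters of 48 of the 63 factors were found in the RefSeq table (GRCm38.p6, 250 bases before and 50 after the start), 63 promoters in all. Eef1akmt1, Eef1d, Eef1g, Eif1a, Eif2b3, Eif3e, Eif3h, Eif3i, Eif3j2, Eif4e1b, Eif4e3, Eif4ebp1, Eif4ebp3, Eif4g2 and Eif6 were not matched. A C followed by at least 4 pyrimidines stood exactly at the annotated start in 2 factors (4.17%), Eif3f and Eif2s3x, against 2.90% of 15199 genes. Within 5 bases of the start it was found in 12 factors (25%, against 22.8%), and within 20 bases in 22 factors (45.8%, against 54.6%), on the strand of the gene. The share of the factors was thus slightly above that of all genes at the start and within 5 bases, and below it within 20 bases. These counts rest on annotated starts and on the matched factors only. Whether transcription begins at these positions in C2C12 cells was not tested, so the counts do not decide how many factors have such a tract. The 2 promoters with the run at the start are shown, from 50 bases before to 30 after it, with the run in capitals from the C at the start onward.
Eif3f, chr7:108934365-108934444, plus strand: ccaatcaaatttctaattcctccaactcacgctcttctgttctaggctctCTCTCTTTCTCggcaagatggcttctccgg
Eif2s3x, chrX:94212622-94212701, minus strand: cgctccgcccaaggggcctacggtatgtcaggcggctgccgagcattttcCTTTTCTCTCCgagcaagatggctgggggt

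Of the other promoter letters searched, some were more frequent in the factors than in the whole table and some less. CACGTG, the E-box letters read the same on both strands, stood in the promoters of 12 of 48 factors (25%), against 9.95% of all genes. In the 250 bases before the start alone it stood in 11 factors (22.9%, against 8.48%). CCGGAAG stood in 17 factors (35.4%, against 13.9%) and GGGCGG in 37 (77.1%, against 54.5%), each on either strand. CCAAT was in 15 factors (31.2%, against 41.9%) and TATAAA in 4 (8.33%, against 11.7%), and the palindromic NRF1 motif and TGACGTCA were in 1 each (2.08%, against 1.65% and 2.89%). Motifs were counted separately and may overlap. The promoters of the factors were richer in G and C, with a median of 62.3% against 57.7%, and the part of base composition in these shares was not tested.

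The 12 factors with CACGTG had a median activity of 6.13 RPKmM (0.50 to 92.36), and the 35 active factors without it 2.47 RPKmM (0.36 to 73.06), so the ranges overlapped almost fully. Of the 12, 4 hold snoRNA genes (Eif3a, Eef2, Eif4g1 and Eif4a1), and without snoRNA hosts the medians were 2.19 RPKmM over 8 factors with CACGTG and 2.27 RPKmM over 32 without it. The most active of the 12, Eif3a, holds the letters after its start, at position 22, and Eif4g1 holds them both before its start and after it, at position 15. The windows below show the letters, in capitals, where they lie before the start in the 4 next most active of the 12, on GRCm38.p6.
Eef2, chr10:81176558-81176623, plus strand: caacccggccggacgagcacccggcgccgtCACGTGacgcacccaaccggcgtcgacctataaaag
Eif4g1, chr16:20672643-20672708, plus strand: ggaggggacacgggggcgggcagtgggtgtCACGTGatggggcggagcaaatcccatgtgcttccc
Eif4a1, chr11:69672577-69672642, minus strand: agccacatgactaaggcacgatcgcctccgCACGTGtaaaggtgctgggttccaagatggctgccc
Eif4h, chr5:134639470-134639535, minus strand: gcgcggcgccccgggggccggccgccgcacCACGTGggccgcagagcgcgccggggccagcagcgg
Counted from the start, the letters begin at position -43 in Eef2, -54 in Eif4g1, -96 in Eif4h and -189 in Eif4a1. Eef2k and Eif1b also hold CACGTG, at activities of 0.57 and 0.50 RPKmM, so the letters were present at both ends of the range.

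The wider set of translation genes had a lower median than the factors. It held 37 genes for termination, recycling, mRNA binding, signalling, modification of factors and mitochondrial translation. Of these, 36 were in the table and all were active, where 68.7% of all genes were. Their median was 1.88 RPKmM (quartiles 0.87 and 3.74). By gene, the median was 2.70 RPKmM for the factors and 2.34 RPKmM for those without a snoRNA gene. At least 10 RPKmM was reached by 3 of the 36 (8.33%), against 1.99% of all genes. The share was 15.9% for the factors and 5.45% for those without a snoRNA gene. The 3 were Pabpc1, the poly(A)-binding protein that contacts eIF4G, at 53.18 RPKmM, Ddx3x, a helicase, at 38.34 RPKmM, and Denr, a reinitiation factor, at 15.85 RPKmM. The release factor genes Etf1, Gspt1 and Gspt2 were at 7.04, 5.56 and 8.76 RPKmM. Mtor, the kinase upstream of the 4E-binding proteins, was at 0.59 RPKmM. The mitochondrial factors ranged from 0.20 RPKmM for Mtif3 and 0.23 RPKmM for Tufm, through 0.93 RPKmM for Tsfm, 0.94 RPKmM for Gfm1 and 1.15 RPKmM for Gfm2, to 2.73 RPKmM for Mtif2, which lay above the median of the set.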

How the data were processed

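Gene activities of 2 pooled GRO-seq libraries of untreated C2C12 myoblasts were analysed. The labels name CASAVA 1.8, Bowtie2 and mm9. The authors kept uniquely mapped reads and removed those in repeats of rRNA and tRNA. They then pooled both libraries and deposited, for every RefSeq entry, the sense-strand read density of the gene body (from 1 kb after the start, per kilobase of mappable bases, scaled to the number of reads, RPKmM, rounded to 2 decimals) or the word Inactive. Pooling hides the spread between libraries, and the table gives no depth per library, so no interval or test was computed. Fold values are ratios of deposited activities.

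Counts, medians, ratios, percentile ranks and Spearman's correlations were computed with Python 3.11.15, pandas 2.3.3, numpy 2.4.6 and scipy 1.17.1, plotted with matplotlib 3.10.9, and the functions were tested on simulated data. A gene with several entries was taken at its most active entry. All 63 factor symbols were matched to GENCODE vM1 (mm9), 59 directly and the others through older names, and 18840 of the 20128 symbols of the table were matched. Promoters came from RefSeq (GRCm38.p6). Alternatives were the least active entry or the mean entry of each gene, 1 entry per gene, a filter at 0.1 RPKmM, geometric means and ratios with pseudocounts of 0.1 and 0.01, the factors without kinases and binding proteins, other promoter windows, and, chosen after seeing the data, the factors without snoRNA host genes. Every member of the groups was to be named. The members, lists and comparisons were chosen with earlier results of these data known.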

Additional observations from a re-analysis of the deposited data

How the results depend on the processing

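Of 63 values under the alternatives, 39 differed from the reported value by less than 1.5 times, 5 differed by more and none reversed. The other 19 equalled it, many because the alternative could not change them (genes with a single entry, or a filter below the lowest factor), and say nothing about stability. Leaving out the genes that hold snoRNA genes, an alternative chosen after seeing the data, lowered the factors at 10 RPKmM or above from 10 to 3 and the ratio of the highest to the lowest eIF3 subunit from 157 to 27.4. With the least active entry of each gene, Eif4e was 0.56 times Eif4e2, and with the most active 0.37 times. A pyrimidine start was counted in 2 factors at the annotated start, in 12 within 5 bases and in 22 within 20 bases. Eef1a1 over Eef1a2 gave no value, since Eef1a2 was inactive. No paired analysis was possible because the table of gene activity holds 1 pooled value of both libraries per entry, and for the same reason neither replicate could be left out. The table gives no read counts and no value per library, so differences between neighbouring genes in the order have no error attached.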
